A study of Homo sapiens with 6 samples.

Results

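The LSM genes encode small RNA-binding proteins that share the Sm-like fold, and 10 of them (LSM1 to LSM8, LSM10 and LSM14A) were examined among the 62443 genes of the deposited table. They were found by gene symbol, and all 10 were measured and passed the minimum level set for testing, which left 7406 genes. The list was chosen by measured values of this same comparison, since a lower level of LSM6 in treated cells was already known, and the question was whether that change is shared by the proteins LSM6 assembles with. The differences between the groups are therefore given for these genes as a description, with no test. RNA sequencing was done on HGC-27 cells, an established human gastric cancer line. The 3 libraries named Con carry no treatment in the labels, and the study names a buffer of HEPES and sodium chloride as its negative control. The 3 libraries named GLUP come from cells given GLUP, a cyclic peptide modelled on the TEAD4-binding segment of VGLL4 and built to hold TEAD4 molecules together. Neither group carries an engineered allele, and the labels give no dose or duration. The study's methods speak of biological replicates, while the labels do not say which libraries came from separate cultures, and p-values measure only the spread between these libraries. The line is a model of 1 tumour.

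Members of the LSM family work in rings. Lsm2 to Lsm7 are common to a nuclear and a cytoplasmic complex: with Lsm8 they form a nuclear ring that holds the uridine-rich 3′ end of U6 small nuclear RNA, a core RNA of the spliceosome, and with Lsm1 they form a cytoplasmic ring that binds shortened poly(A) tails and helps to remove the 5′ cap from messenger RNA. Lsm6 is a subunit of both rings. Lsm10 replaces an Sm protein in the U7 particle that trims histone messenger RNA, and Lsm14A is a larger protein of processing bodies, the cytoplasmic granules where messenger RNA is stored or decayed, and is no part of these rings.

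Promoter sequences were looked at first, because the peptide was built against TEAD4. RefSeq windows (GRCh38.p14) were matched by symbol for 7 of the 10 genes (LSM2, LSM3, LSM4, LSM5 with 2 start sites, LSM7, LSM8 and LSM10), 8 windows in all, and LSM1, LSM6 and LSM14A had no entry. In the 250 bases before each start, the letters GGAATG, the core of the DNA element that TEAD proteins bind, were searched on both strands, where they read CATTCC on the other strand. They were present in 2 of the 8 windows, compared with 11.9% of all 35116 windows of the same length. The letters CCGGAA (or TTCCGG on the other strand), the core of the ETS element common in promoters of housekeeping genes, were present in 3 of the 8 windows and in 14.5% of all windows. The TEAD letters were found before LSM2 and LSM10. These were also the 2 genes with a higher mean in GLUP, and their stretches were picked with that known. For LSM10 the difference of the group means on a log2 scale was only 0.12 (SE 0.31). It was -0.07 without Con replicate 2, -0.03 without GLUP replicate 3 and -0.08 with the trend in GC content and length removed. As LSM6 had no window and only 2 of 8 windows held the letters, a link between the letters and the direction of change was not tested. The matching letters are in capitals, and each stretch is written 5′ to 3′ on the strand of its gene. A stretch of LSM3 with its 2 ETS matches was added, likewise with its lower mean in GLUP known. A match is only a match of letters and was not tested for binding.
LSM2 (chr6:31806971-31807030, minus strand, match 37 bases before the start): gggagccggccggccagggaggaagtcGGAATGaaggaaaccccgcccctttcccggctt
LSM10 (chr1:36398009-36398068, minus strand, match 133 bases before the start): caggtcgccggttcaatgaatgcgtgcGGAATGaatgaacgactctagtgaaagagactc
LSM3 (chr3:14178746-14178805, plus strand, matches 44 and 20 bases before the start): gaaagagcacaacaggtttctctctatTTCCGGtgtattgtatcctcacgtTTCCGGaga

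The libraries themselves were unequal, and this touches every value that follows. The GLUP libraries resembled each other closely (Pearson correlations across genes 0.978 to 0.986), and the Con libraries less (0.905 to 0.973). Con replicate 2 stood furthest from the rest, and Con replicate 3 correlated at 0.981 on average with the GLUP libraries but at 0.973 and 0.905 with the other Con libraries. Differences between the groups also followed base composition. Among tested genes, 94.1% of the tenth poorest in GC were lower on average in GLUP, against 28% of the tenth richest in GC, so the GC content of each LSM transcript and its value with the trend in GC content and length removed are given below; the part of this trend in each difference was not tested. The epithelial markers EPCAM and CDH1 were at most 0.124 FPKM in any library (fragments per kilobase of transcript, scaled to the mapped fragments of the library). The epithelial keratins KRT8, KRT18 and KRT19 were at 0.764 to 2.51 FPKM. Each was higher in every GLUP library than in any Con library, as were 7.55% of all tested genes. Vimentin, a mesenchymal marker, was at 222.2 to 387.2 FPKM, while CDH2, another, was at most 0.0508 FPKM. The summed level of 5 epithelial markers was 2.97 to 3.7 FPKM in Con and 5.18 to 6.06 FPKM in GLUP. That of 5 mesenchymal markers, mostly vimentin, was 352.5 to 415 and 241.2 to 347 FPKM. That of 5 fibroblast markers was 87.7 to 124.3 and 92 to 122.9 FPKM. Among these, lumican and decorin were high, and PDGFRB was at most 0.198 FPKM. Of 5 blood cell markers, CD3E and HBB were at 0 in every library, and the sum reached 1.52 FPKM at most. The part of these markers in the LSM values was not tested. Because RNA was pooled from all cells of a culture, fewer cells of a kind and less RNA per cell cannot be told apart.

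LSM6 differed most from Con among the 10 genes. LSM6 (ENSG00000164167, protein-coding, chromosome 4, 147096855 to 147121152, plus strand, GRCh37) had values, in replicate order, of 10.6, 15.4 and 9.52 FPKM among the controls and of 4.25, 3.18 and 2.91 FPKM after GLUP. Every GLUP library was below every Con library, and Con replicate 3 lay with the other controls. The Con mean was 11.9 ± 3.13 FPKM and the GLUP mean 3.45 ± 0.71 FPKM (SD, n = 3 each), so that GLUP held 29.1% of the Con level. The log2 fold change, the difference of the group means of log2(FPKM + 1), was -1.52 (SE 0.29), which 0.905% of the 7406 tested genes lay below. The median of all tested genes was itself -0.23, and relative to it LSM6 was at -1.29. Its transcript had a GC content of 40.2%, below the median of 47.2% over the tested genes. After removal of the trend in GC content and length its log2 fold change was -0.97 (SE 0.22), which 2.62% of all tested genes lay below in the same fit. The groups remained apart for LSM6 in all 15 alternatives that kept every library. The pseudocount, the minimum, the variance model and the replicate block could not change this, as they keep the order of the values. Rescaling and removal of the trend could have changed it and did not. LSM6 was chosen with these values known, so this describes them and is no independent support. In the main fit, 22.7% of all tested genes had groups apart with GLUP lower.

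**Figure D1:**
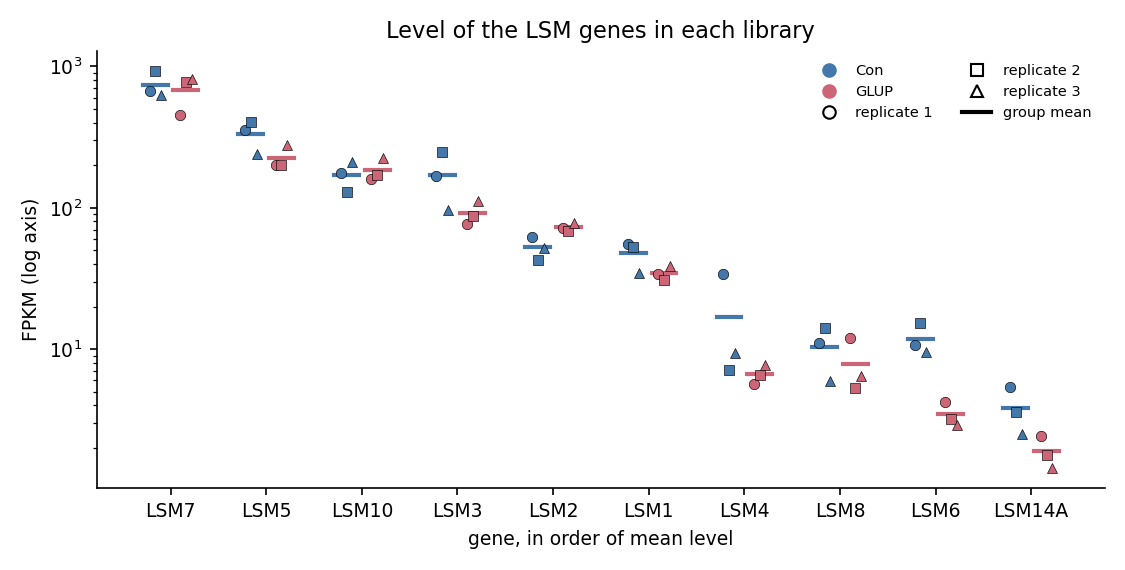
FPKM (log axis) of each LSM gene in the 3 Con libraries (blue) and the 3 GLUP libraries (red), in order of mean level (circles, squares and triangles are replicates 1 to 3, lines are group means). LSM6 and LSM14A have all GLUP points below all Con points, and LSM2 has them above.

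The ring partners common to both complexes did not move alike. LSM2 (ENSG00000204392, chromosome 6, 31765173 to 31774743, minus strand) was at 62.3, 42.9 and 52.3 FPKM in Con and at 72.2, 69 and 78.4 FPKM in GLUP. All 3 GLUP values were above all Con values, the opposite of LSM6. Its Con mean was 52.5 ± 9.72 FPKM and its GLUP mean 73.2 ± 4.77 FPKM (SD, n = 3 each). The log2 fold change was 0.49 (SE 0.29), or 0.40 after removal of the GC and length trend, at a GC content of 54.2%.

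LSM3 (ENSG00000170860, chromosome 3, 14220317 to 14242622, plus strand) was at 166.6, 246.3 and 96 FPKM in Con and at 76.2, 88 and 111.8 FPKM in GLUP. Con replicates 1 and 2 were high, whereas Con replicate 3 lay within the GLUP values. Its log2 fold change was -0.79 (SE 0.38), or -0.39 with the trend removed.

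LSM4, the ring subunit with a long arginine- and glycine-rich tail (ENSG00000130520, chromosome 19, 18417046 to 18433922, minus strand), was at 33.8, 7.14 and 9.37 FPKM in Con and at 5.66, 6.52 and 7.65 FPKM in GLUP. A single library, Con replicate 1, stood far above the rest, and the other Con values were close to those of GLUP. The log2 fold change of LSM4 was -0.92 (SE 0.49) with all libraries and -0.28 without Con replicate 1. Its transcript had a GC content of 58.5%, and after removal of the trend its value was -1.20 (SE 0.43) with the groups apart. LSM4 rather than LSM6 was then lowest of the 10 genes, but Con replicate 1 again stood far above the rest. On the log2 scale with the trend removed it was at 5.03, against 3.68 and 3.23 in the other Con libraries and 2.51 to 3.07 in GLUP. That fit was not run without Con replicate 1.

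LSM5 (ENSG00000106355, chromosome 7, 32524950 to 32534895, minus strand) was at 352.7, 405.8 and 240.3 FPKM in Con and at 199.4, 199.6 and 276.1 FPKM in GLUP. The groups overlapped through Con replicate 3 and GLUP replicate 3. The log2 fold change was -0.55 (SE 0.31), but its transcript had a GC content of only 35.7%, and with the trend removed the value was 0.13 (SE 0.21), on the other side of 0.

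LSM7 (ENSG00000130332, chromosome 19, 2321519 to 2328610, minus strand) was at 669.2, 934.5 and 631.8 FPKM in Con and at 455.5, 777 and 821.1 FPKM in GLUP. The values of both groups were mixed, with GLUP replicate 1 lowest and Con replicate 2 highest. Its log2 fold change of -0.15 (SE 0.31) took a positive sign with 3 of the rescalings and without either Con replicate 2 or GLUP replicate 1, and it was -0.36 (SE 0.30) with the trend removed.

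The subunits that set where the ring works overlapped between the groups. LSM1, found only in the cytoplasmic ring (ENSG00000175324, chromosome 8, 38020853 to 38034248, minus strand), was at 55.8, 52.9 and 34.4 FPKM in Con and at 33.8, 31 and 38.8 FPKM in GLUP, with a log2 fold change of -0.43 (SE 0.31), or -0.13 (SE 0.20) with the trend removed. As in LSM3 and LSM5, Con replicate 3 was at the level of the GLUP libraries while the other Con libraries were higher. BAG4 overlaps LSM1 on the other strand, at 0.683 to 8.04 FPKM, and it is not stated whether strand was used in counting, so LSM1 is uncertain to that extent. LSM8, found only in the nuclear ring (ENSG00000128534, chromosome 7, 117824198 to 117844089, plus strand), was at 11.1, 14.1 and 5.95 FPKM in Con and at 11.9, 5.33 and 6.41 FPKM in GLUP. No group was consistently higher, and the log2 fold change of -0.36 (SE 0.39) became 0.26 (SE 0.27) with the trend removed, at the lowest GC content of the 10 genes (34.3%).

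Whether the lower level of LSM6 is shared by its ring was then examined within each library, where a change of scale common to all genes cancels on the log scale except for the pseudocount. LSM6 was set against the mean log2(FPKM + 1) of its 7 ring partners. The difference (LSM6 minus partners) took the values -3.0, -2.34 and -2.44 among the controls and -3.39, -3.71 and -4.07 after GLUP. LSM6 was thus further below its partners in every GLUP library than in any Con library. The mean difference was -2.60 ± 0.36 (SD, n = 3) in Con and -3.72 ± 0.34 (SD, n = 3) in GLUP, a change of -1.13, while the mean of the partners themselves changed by -0.39, from 6.25 ± 0.37 (SD, n = 3) to 5.86 ± 0.15 (SD, n = 3). The change was -0.98 when LSM2, the partner with the opposite sign, was left out, and -0.78 after removal of the GC and length trend. It was negative, with the groups apart, in all 21 alternatives, but many of these could not change that. The minimum, the variance model, the replicate block and median centring left these values as they were. Leaving out a library only removed points from groups already apart. In the other alternatives the change ran from -1.36, with a pseudocount of 0.01, to the -0.78 given above. Against single partners, the groups were apart for LSM1, LSM2, LSM5, LSM7 and LSM8, with changes from -2.0 for LSM2 to -0.97 for LSM5. For LSM3 (-0.72) and LSM4 (-0.59) they overlapped, and for LSM4 the overlap was with Con replicate 1 alone. Against LSM10 (-1.64) and LSM14A (-0.80), outside the rings, the groups were apart as well. The separation was thus not particular to the ring partners, and it was not computed against all genes.

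**Figure D2:**
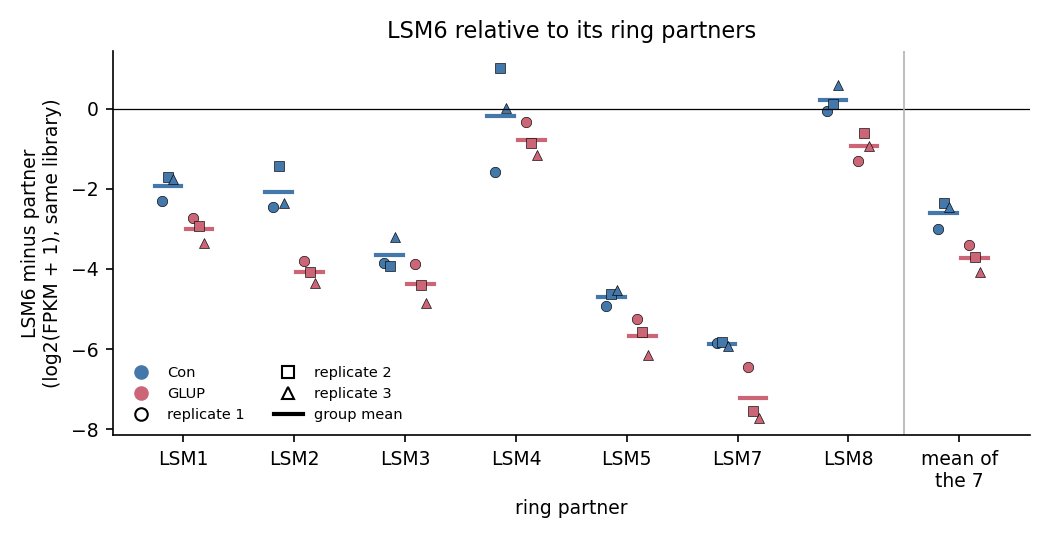
LSM6 minus each ring partner in the same library, on log2(FPKM + 1), for 3 Con (blue) and 3 GLUP (red) libraries, with the mean over the 7 partners at the right (circles, squares and triangles are replicates 1 to 3, lines are group means). Against the mean of the partners, Con lies between -3.0 and -2.34 and GLUP between -4.07 and -3.39.

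Outside the rings, LSM14A (ENSG00000257103, chromosome 19, 34663409 to 34720193, plus strand) was at 5.42, 3.6 and 2.51 FPKM in Con and at 2.44, 1.77 and 1.44 FPKM in GLUP. All GLUP values were lower, though Con replicate 3 exceeded GLUP replicate 1 only narrowly. The mean went from 3.84 ± 1.47 to 1.88 ± 0.507 FPKM (SD, n = 3 each), a log2 fold change of -0.72 (SE 0.29). Its groups overlapped once the GC and length trend was removed, where the value was -0.24 (SE 0.23). They also overlapped with the trimmed mean of log ratios, the upper quartile, median centring and scaling to the total without mitochondrially encoded genes. They were apart in 8 of the 14 alternatives with all libraries that tested it. Most of those 8 changed only the pseudocount, the minimum, the variance model or the block, which keep the order of the values. LSM10, the U7 subunit (ENSG00000181817, chromosome 1, 36856839 to 36863509, minus strand), was at 175.6, 129.3 and 209.9 FPKM in Con and at 160.7, 170.1 and 224.6 FPKM in GLUP. Its groups were interleaved, with a log2 fold change of 0.12 (SE 0.31) that was -0.08 with the trend removed.

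Counted together, 8 of the 10 genes had a lower mean in GLUP, as did 65.5% of all genes tested, and their median log2 fold change was -0.49 against -0.23. All GLUP values lay below all Con values for 2 of the 10 (LSM6 and LSM14A), against 22.7% of all genes, and above them for 1 (LSM2), against 7.55%. The shares of genes with groups apart were near those of the whole table. After removal of the GC and length trend, 7 of the 10 had a lower mean, compared with 49.2% of all genes, and the median was -0.19 against 0.01. In limma, with Benjamini-Hochberg adjustment, 0 of the 7406 genes (0%) had an adjusted p under 0.05 and 1606 had an unadjusted p under 0.05.

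**Figure D3:**
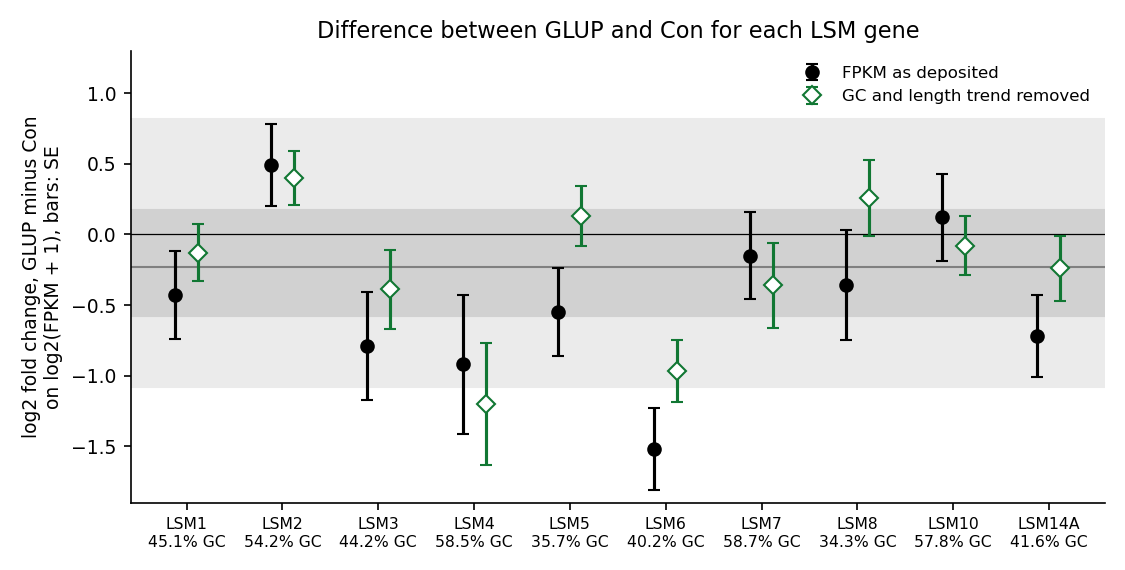
Log2 fold change (GLUP minus Con, on log2(FPKM + 1)) of each LSM gene with its SE from limma, for the deposited FPKM (black) and with the trend in GC content and length removed (green diamonds), over the middle 50% (dark band, -0.58 to 0.17), the middle 90% (light band, -1.08 to 0.82) and the median (grey line, -0.23) of all tested genes as deposited, with the GC content of each transcript under its name. As deposited, LSM6 lies below the light band. With the trend removed LSM4 is lowest, and the bands do not apply to those values.

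Part of the overlap between groups rested on single libraries, and for Con replicate 3 the counts were close to the shares over all tested genes. On the log2(FPKM + 1) scale it was nearer to the GLUP mean than to the mean of the other Con libraries in 8 of the 10 genes, as it was in 74.1% of all tested genes. The exceptions were LSM2 and LSM6. In LSM1 it differed from the GLUP mean by 0.00 and from the other Con libraries by -0.64, in LSM3 by 0.08 and -1.07, whereas in LSM6 it was 1.25 above the GLUP mean and only 0.39 below the other Con libraries (a difference of -0.39). Without Con replicate 3, the GLUP values of 5 of the 10 genes were all below those of Con, in place of 2, against 43.1% of all genes in the same setting. Without GLUP replicate 3 those of 6 of the 10 were, against 30.5% of all genes. Leaving out a library can only keep or raise such a count. It was 2 without Con replicate 1, 3 without Con replicate 2, and 2 without either GLUP replicate 1 or GLUP replicate 2.

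**Figure D4:**
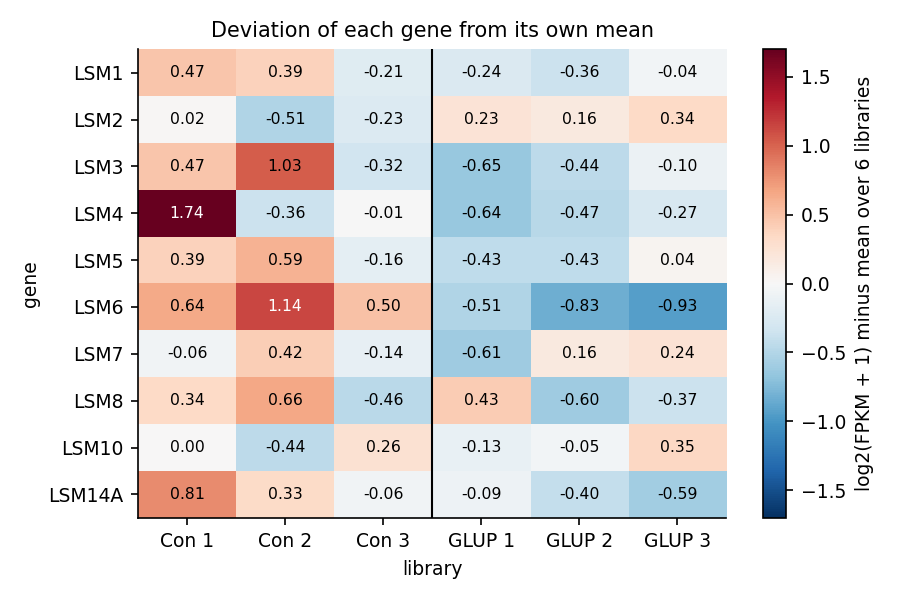
Deviation of each LSM gene (rows) in each library (columns) from its own mean over the 6 libraries, on log2(FPKM + 1), red above and blue below the mean. LSM6 is above its mean in all 3 Con libraries, from 0.50 to 1.14, and below it in all 3 GLUP libraries, from -0.93 to -0.51, while Con 3 is below the mean for LSM1, LSM3, LSM5 and LSM8.

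Levels of the subunits were far from equal, although the proteins enter the rings in equal numbers. FPKM is scaled to length, so levels may be set side by side, with the reservation that short transcripts are measured less evenly. Over the 6 libraries the means ran from 714.9 FPKM for LSM7 through LSM5 (279), LSM10 (178.4), LSM3 (130.8), LSM2 (62.8), LSM1 (41.1), LSM4 (11.7), LSM8 (9.14) and LSM6 (7.65) to 2.86 FPKM for LSM14A. LSM7 stood above LSM5 and LSM5 above LSM10 in all 6 libraries, as did LSM3 above LSM2, LSM1 above LSM4 and LSM6 above LSM14A. The other neighbours differed by group. In Con, LSM10 (171.6 FPKM) and LSM3 (169.6 FPKM), LSM2 and LSM1, and LSM6 and LSM8 each changed order in 1 of 3 libraries, and LSM4 was above LSM6 in only 1 of 3, so these neighbours did not differ beyond their spread. In GLUP, LSM10 was 1.93 to 2.11 times LSM3 and LSM2 was 2.02 to 2.22 times LSM1. LSM4 was there 1.33 to 2.63 times LSM6, and only LSM8 and LSM4 changed order. LSM8 had the lowest mean of the ring subunits in Con (10.4 FPKM, against 11.9 FPKM for LSM6), and LSM6 the lowest in GLUP (3.45 FPKM). The FPKM of LSM7 was 60.7 to 66.3 times that of LSM6 in Con and 107.1 to 282.1 times in GLUP, and that of LSM5 was 25.2 to 33.2 times and 46.9 to 94.9 times. The 7 annotated pseudogenes of LSM1, LSM3 and LSM6 did not exceed 1.09 FPKM in any library.

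The LSM genes outside the list were low or overlapping. LSM11, the partner of LSM10 in the U7 particle, was at 0.0869 to 0.309 FPKM and LSM14B, the relative of LSM14A, at 0.11 to 0.491 FPKM, both under the minimum for testing. LSM12 was at 7.9, 15.2 and 9.29 FPKM in Con and at 9.92, 7.86 and 5.05 FPKM in GLUP, where limma gave a log2 fold change of -0.45 (SE 0.35, adjusted p 0.419).

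The genes that work with the LSM proteins were taken from lists written by function. They held 83 further genes, of which 58 were tested. None was called by limma (0 of 58, where 0% of all genes were called). In limma 12 of the 58 had an unadjusted p under 0.05, against 1606 of the 7406 genes tested. Of the 58, 44 had a lower mean in GLUP, against 65.5% of all genes. Their median log2 fold change was -0.30, against -0.23. After removal of the GC and length trend 28 of the 58 had a lower mean, against 49.2% of all genes, and both medians were 0.01. These shares of all genes also stand beside the counts of each list below. The count called depended on 1 library. Without Con replicate 3, limma called 9 of the 58 as lower (15.5%, against 16.3% of all genes) and 2 as higher (3.45%, against 2.2%).

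The Sm proteins form the heptameric ring of the other spliceosomal RNAs and are the closest relatives of the LSM ring. Of 7 tested, 6 had a lower mean, with log2 fold changes from -0.51 to -0.24, and the groups overlapped in each. After removal of the GC and length trend only 2 of the 7 were lower, and the median went from -0.39 to 0.07. SNRPB was the exception. It was at 74.9, 14.7 and 117.8 FPKM in Con and at 209.1, 171.3 and 157 FPKM in GLUP, so that all GLUP values were above all Con values, and Con replicate 2 was far below the rest. In limma its log2 fold change was 1.78 (SE 0.63, adjusted p 0.198), 0.91 without Con replicate 2, and 2.37 without Con replicate 3, where limma called it (adjusted p 0.0434). SNRPD2 and SNRPD1 had log2 fold changes of -0.48 each (adjusted p 0.296 and 0.369).

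Among 16 tested genes of U6 maturation and of the tri-snRNP, the particle that carries U6 into the spliceosome, 10 had a lower mean, and the median was -0.14. With the trend removed 8 of the 16 were lower, with a median of -0.02. TXNL4A, a small protein of the U5 particle, was at 23.2, 36 and 17.6 FPKM in Con and at 8.6, 11.2 and 12.9 FPKM in GLUP. All GLUP values of TXNL4A were lower, and limma gave a log2 fold change of -1.12 (SE 0.34, adjusted p 0.194), or -0.94 with the trend removed. SSB, the La protein that holds the 3′ end of new U6 before the LSM ring, had a log2 fold change of -0.71 (adjusted p 0.227), which was -0.05 with the trend removed. SNRNP200, the helicase that unwinds U6 from U4, was higher in every GLUP library, at 4.32, 5.83 and 2.23 FPKM against 1.79, 1.01 and 2.01 FPKM, with a log2 fold change of 0.93 (adjusted p 0.198). The U6 genes themselves were hardly measured: RNU6-8 alone reached 1 FPKM on average, at 1.26 to 7.63 FPKM with overlapping groups (log2 fold change -0.09, adjusted p 0.91), and near-identical copies make its value uncertain.

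In the cytoplasm, the decapping and 5′ decay genes had 6 tested members, of which 4 had a lower mean (median -0.18), but only 1 did with the trend removed (median 0.10). The catalytic decapping enzyme DCP2 was at 7.81, 7.54 and 4.64 FPKM in Con and at 3.21, 3.04 and 4.41 FPKM in GLUP. Its values did not overlap, its log2 fold change was -0.73 (SE 0.29, adjusted p 0.203 in limma), and it was -0.18 with the trend removed. DCP1A, its activator, and DDX6, the helicase that binds LSM14A, had log2 fold changes of -0.35 and -0.34 (adjusted p 0.427 and 0.412) and overlapping groups. PATL1, which joins the cytoplasmic ring to the decapping enzyme, and XRN1, the exonuclease that follows, were under the minimum for testing.

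Deadenylation genes, which shorten the tails that the cytoplasmic ring then binds, had a lower mean in 8 of 9 tested, with a median of -0.67. PABPC1, the poly(A)-binding protein, was at 31.9, 40.2 and 26.5 FPKM in Con and at 19, 20.2 and 15.7 FPKM in GLUP, with a log2 fold change of -0.80 (SE 0.30, adjusted p 0.198). CNOT1, the scaffold of the main deadenylase, was at 27.9 FPKM in Con replicate 2 alone, against 4.84 to 8.02 FPKM elsewhere, and its log2 fold change of -1.05 (adjusted p 0.215) was -0.49 without that library. All GLUP values of CNOT1 were nonetheless below those of Con. PAN3, the adaptor of another deadenylase, was likewise highest in Con replicate 2, with -1.06 (adjusted p 0.202) and -0.57 without it. After removal of the GC and length trend, the median of the 9 was -0.16.

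**Figure D5:**
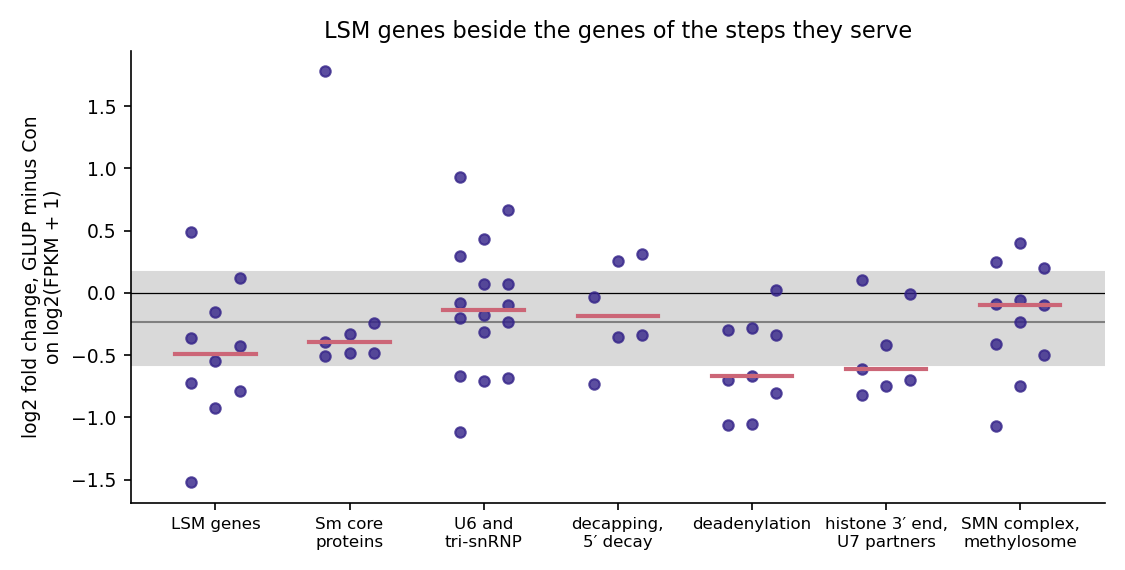
Log2 fold change (GLUP minus Con, on log2(FPKM + 1)) of the 10 LSM genes and of the tested genes of 6 functional lists, 1 point a gene with the median in red, over the middle 50% (grey band, -0.58 to 0.17) and the median (grey line) of all tested genes. SNRPB stands at 1.78 above the other Sm genes, and LSM6 at -1.52 is the lowest point.

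For the U7 pathway of LSM10, 6 of 7 tested genes of histone messenger RNA processing had a lower mean, with a median of -0.61 that was -0.07 with the trend removed. CPSF3, the nuclease that cuts histone precursors, was at 15.1, 11.8 and 8.65 FPKM in Con and at 6.11, 5.93 and 6.32 FPKM in GLUP. These groups were apart, with a log2 fold change of -0.82 (SE 0.29, adjusted p 0.198). SLBP, which binds the histone stem-loop, and CASP8AP2, which works with LSM11 in the U7 particle, had log2 fold changes of -0.70 and -0.75 (adjusted p 0.253 and 0.264), with overlapping groups. Of the SMN complex and the methylosome, which load Sm and U7 rings onto RNA, 8 of 11 tested genes had a lower mean (median -0.10), but only 5 did with the trend removed (median 0.31). GEMIN2, which holds the Sm proteins during loading, was at 12.8, 21.8 and 7.45 FPKM in Con and at 6.28, 5.88 and 4.71 FPKM in GLUP, with a log2 fold change of -1.07 (SE 0.37, adjusted p 0.198) that was -0.51 with the trend removed. CLNS1A, a chaperone of Sm proteins before loading, and GEMIN6, a subunit of the SMN complex, had log2 fold changes of -0.75 and -0.50 (adjusted p 0.198 and 0.32), each with all GLUP values below those of Con, by less than the printed precision in GEMIN6 (14.3 FPKM in both Con replicate 3 and GLUP replicate 1).

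The genes closest to LSM6 in profile were sought over all tested genes, as the root mean square distance between the 6 values of log2(FPKM + 1) after centring each gene on its own mean. The nearest 5 were DEPDC5, a subunit of a complex that restrains mTORC1 (distance 0.16), AHCYL1, a regulator of the inositol trisphosphate receptor (0.18), and TRIM51CP, FSD1L and CBWD7 (0.19 each). DEPDC5 was at 4.16, 5.63 and 2.62 FPKM in Con and at 1.04, 0.92 and 0.839 FPKM in GLUP. AHCYL1 was at 8.92, 11.6 and 7.25 FPKM and at 3.46, 3.59 and 2.89 FPKM. DEPDC5, AHCYL1 and TRIM51CP kept the order of LSM6 in Con, with replicate 2 highest and replicate 3 lowest. In FSD1L and CBWD7 replicate 1 was lowest. All 5 were picked for closeness over these same values, so a like order is largely given by the choice. TRIM51CP is a pseudogene and CBWD7 has several near-identical relatives, so both are uncertain. Of the LSM genes, LSM14A was nearest at 0.49, in place 1120 of 7405, followed by LSM3 (0.51, place 1291), while LSM2 was furthest at 1.06, in place 6190.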

How the data were processed

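RNA of HGC-27 cells was sequenced in 6 libraries, 3 Con and 3 GLUP, grouped by sample title. The authors deposited 1 table of FPKM values for 62492 gene identifiers. Per the labels, HISAT2, Cufflinks and RSEM were used, and versions, roles and filters are not given in the sources used here. The labels name the build GRCh38.p10, while the identifiers carry suffixes of a GENCODE annotation lifted to GRCh37, so gene coordinates, GC content and length were taken from GENCODE release 44 lifted to GRCh37. An FPKM value depends on all other genes of its library, and the table holds no read counts, so depth is unknown. Low values of 29665 genes with 1 transcript placed relative depth at 0.835 for Con replicate 2 up to 1 for GLUP replicate 2, but only 2.72% to 4.01% of values lay on whole steps and reads were not recovered.

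Copies on chromosome Y of pseudoautosomal genes (49) were summed with their counterparts. Values were taken as log2(FPKM + 1), which understates changes of low genes, and genes were tested where the mean over the libraries reached 1 FPKM. Groups were compared with limma 3.58.1 in R 4.3.3 (two-sided, moderated with a trend in level, no covariates), adjusted over all 7406 genes. The fit was also run on simulated data with 200 changed genes. These had the same spread in both groups, no trend in GC content and no outlying library, so they say nothing about those features of the real libraries. Groups are called apart where their ranges do not overlap. Members, lists and alternatives were chosen with earlier results of these data known. Besides the members, the text names the 3 genes of smallest p per list, the LSM genes outside the list and the 5 nearest to LSM6 in profile. PATL1, XRN1, LSM12P1 and genes named for a setting were added after their values were seen. Alternatives covered the pseudocount, the minimum, scaling, the variance model, GC content and length, the replicate block and leaving out each library. Tables were handled in Python 3.11.15 with pandas 2.3.3 and numpy 2.4.6, and drawn with matplotlib 3.10.9.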

Additional observations from a re-analysis of the deposited data

How the results depend on the processing

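All 21 alternatives were planned. LSM6, LSM1, LSM3, LSM4 and LSM14A had a negative log2 fold change and LSM2 a positive one in each that tested them (LSM14A was not tested with a minimum of 5 FPKM). LSM6 ranged from -1.77 to -0.97. LSM7 changed sign with the trimmed mean of log ratios (0.15), the upper quartile (0.14) and median centring (0.12), and without 1 library in the range -0.30 to 0.12. LSM10 did so without 1 library (-0.07 to 0.28). With the GC and length trend removed, LSM5 (0.13), LSM8 (0.26) and LSM10 (-0.08) changed sign, and the values were the same with the replicate block added. The median of the 10 genes was -0.49, against -0.19 by the trimmed mean of log ratios, -0.20 by the upper quartile, -0.19 after removal of the GC and length trend and -0.19 after that removal with the block. Rescaling brought the median of all genes from -0.23 to -0.01 and the share of lower genes from 65.5% to 50.6% with the trimmed mean of log ratios.

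The count of genes called was 0. It was 1 with a minimum of 5 FPKM and 1 with eBayes without trend (CLPTM1L each time), 2 after removal of the GC and length trend (CLPTM1L and HSPB1), 1 with the replicate block and 1 with both (ENSG00000261553). Without 1 library it ran from 0 to 1367, the latter without Con replicate 3, and it was 3 without Con replicate 2. That of the functional lists ran from 0 to 11. The labels do not say whether same-numbered libraries were paired. Their deviations from the group means correlated at 0.13, -0.01 and -0.17, which cannot settle how the cultures were set up. The main fit treated the libraries as unpaired. With the GC and length trend removed, adding the block replaced the calls of CLPTM1L and HSPB1 by that of ENSG00000261553. The depth of a library is unknown, so no counting error can be given. The cause of these shifts was not tested.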

Other observations

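LSM12P1, a processed copy of LSM12, was listed at 2.54, 6.16 and 7.06 FPKM in Con and at 10.7, 5.85 and 8.4 FPKM in GLUP. It was chosen after its values were seen. LSM12 itself was at 7.9, 15.2 and 9.29 FPKM and at 9.92, 7.86 and 5.05 FPKM, so the copy was at a level close to that of its parent gene in several libraries, unlike the copies of LSM1, LSM3 and LSM6. How reads were assigned between LSM12 and LSM12P1 is not given in the sources used here, and the values of both are uncertain.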
